A study of Mus musculus with 9 samples.

Results

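Hepatic acute phase proteins are plasma proteins whose synthesis in the liver changes with inflammation, infection or injury, and 5 of their genes were followed here in mouse liver under 2 dietary restriction regimens. The 5 members were the rows of the expression table with the symbols Hp, Hpx, Orm2, Saa3 and Lcn2. All 5 were found among the 5608 genes of the table, and all 5 were among the 4665 genes with a mean of at least 1 TPM (a transcript's abundance corrected for its length and for the library total) that were tested.

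The liver RNA came from wild-type C57BL/6 J mice of the acute experiment, 3 mice and 3 libraries per group. FED mice had the standard diet ad libitum, IF mice were without food for 24 h on day 1 and again on day 4, and FMD mice ate the fasting-mimicking diet on days 2 to 4, with 50% of the usual calories on its first day and 10% on the later days. IF and FMD mice had free access to water and hydrogel, and all mice were sacrificed on day 5, so that both regimens were sampled at their end and without refeeding. The libraries are numbered 1, 2 and 3 for FED, the same for IF, and 1, 2 and 4 for FMD, and the sources used here do not give the age or sex of the mice.

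Acute phase genes are switched on in hepatocytes mainly by interleukin-6, which signals through gp130, JAK kinases and STAT3, and by interleukin-1, which signals through NF-κB, with C/EBP factors and glucocorticoids acting on many of the same promoters. Haptoglobin (Hp) binds free haemoglobin and haemopexin (Hpx) binds free haem, so both return iron to the liver and limit oxidative damage. Orm2 encodes an α1-acid glycoprotein, a plasma carrier of small lipophilic and basic molecules. Serum amyloid A3 (Saa3) belongs to a family of proteins that associate with high-density lipoprotein, and lipocalin 2 (Lcn2) withholds iron from bacteria by binding their siderophores. Macrophages also make Saa3, and neutrophils store lipocalin 2 in their granules.

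The sequences before the start sites of Orm2 and Hpx are shown because these were the only members called in any comparison with FED on the values of all 9 libraries, Orm2 on the deposited values and Hpx after scaling. Both are RefSeq sequences of build GRCm38.p6 and hold the 250 bases before the start, 5′ to 3′ along the gene. The Orm2 window is chr4:63362199-63362448 on the plus strand and the Hpx window is chr7:105600117-105600366 on the minus strand. Capitals mark every match to a motif searched.
Orm2: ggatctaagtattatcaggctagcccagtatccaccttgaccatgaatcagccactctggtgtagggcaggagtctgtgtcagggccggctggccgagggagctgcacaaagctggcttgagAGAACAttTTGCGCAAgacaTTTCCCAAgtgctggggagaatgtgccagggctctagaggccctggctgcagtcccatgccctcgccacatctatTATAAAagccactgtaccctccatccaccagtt
Hpx: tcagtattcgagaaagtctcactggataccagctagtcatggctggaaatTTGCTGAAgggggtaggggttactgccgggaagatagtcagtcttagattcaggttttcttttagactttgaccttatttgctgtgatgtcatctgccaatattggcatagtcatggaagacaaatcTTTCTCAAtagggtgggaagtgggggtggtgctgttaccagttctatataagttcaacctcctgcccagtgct

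The motifs were searched on both strands as a STAT site TTCNNNGAA, a C/EBP site TTNNGNAA, an NF-κB site GGNNTTTCC, the core of an interleukin-6 response element CTGGGA, the hexamer TGTTCT of the glucocorticoid receptor element and a TATA box TATAAA. The Orm2 window held 2 matches to the C/EBP letters, 120 to 113 and 108 to 101 bases before the start, with a glucocorticoid receptor hexamer just upstream, 128 to 123 bases before it, and a TATA box 33 to 28 bases before it. The Hpx window held 2 C/EBP matches, and in these windows no match overlapped another. Windows were matched for 4 of the 5 members, all but Hp, and all 4 held a C/EBP match (4 in Saa3 and 1 in Lcn2), as did 36.8% of the 32851 promoter windows of the same length. The hexamer was found in 16.1% and the TATA box in 12.4% of all windows. The NF-κB letters were found in Saa3 alone, 187 to 179 bases before the start and overlapping a C/EBP match, and in 4.93% of all windows. No window of the 4 held the STAT or interleukin-6 element letters, which occurred in 7.02% and 27% of all windows.

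Transcripts of Hp and Hpx were among the most abundant of the table, with group means of 3596 to 5464 TPM, and the other 3 members had group means between 6.36 and 38.8 TPM. The table holds part of each library. Its genes add up to 26.3% to 29.3% of a library's full TPM in FED, 32.9% to 34.9% in IF and 35% to 43% in FMD, and the sequencing depth is unknown. The median gene tested was higher by 0.24 (log2) in IF and by 0.48 in FMD than in FED on the deposited values, and by 0.24 in FMD than in IF, so each comparison is also given on scaled values. For these, a library's values were divided by a factor, the median over genes of its level relative to the geometric mean of all libraries (factors of 0.815 to 0.844 in FED, 0.962 to 1.03 in IF and 1.09 to 1.43 in FMD), which brought the median gene to a change of 0.00 in IF and 0.01 in FMD. The scaling assumes that the median gene did not change, which was not tested.

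A gene was called at an adjusted p under 0.05 with a change of over 1.5-fold (limma on log2(TPM + 1), adjusted over all 4665 genes). On the deposited values, 10.3% of all genes were called higher and 1.59% lower in IF than in FED, and 35.5% were called higher and 1.59% lower in FMD than in FED. After scaling, these shares were 3.69% and 3.45% in IF and 5.49% and 5.64% in FMD, so that 479 higher and 74 lower genes in IF became 172 and 161, and 1658 and 74 in FMD became 256 and 263. Of the 5 members, 1 (Orm2) was called in IF and the same 1 in FMD, both times lower. After scaling, 1 was called lower in IF (Orm2) and 2 in FMD (Orm2 and Hpx), and no member was called higher in either regimen.

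Orm2 was the member with the largest fold change against FED in both regimens. Its level was 69.4, 17.4 and 29.6 TPM in FED replicates 1, 2 and 3, 13.2, 5.86 and 6.19 TPM in IF replicates 1, 2 and 3, and 23.9, 5 and 4.22 TPM in FMD replicates 1, 2 and 4. All IF mice were below all FED mice, while FMD replicate 1 lay above FED replicate 2. Group means were 38.8 ± 27.2 TPM (FED), 8.41 ± 4.13 TPM (IF) and 11.1 ± 11.2 TPM (FMD), with SD and n = 3.

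Orm2 fell 3.84-fold in IF (log2 fold change -1.94 ± 0.61, SE, 95% interval -3.28 to -0.60, adjusted p = 0.041) and 3.70-fold in FMD (-1.89 ± 0.61, interval -3.23 to -0.55, adjusted p = 0.0193), both on the log2(TPM + 1) scale. After scaling the log2 fold changes were -2.21 (adjusted p = 0.03) and -2.40 (adjusted p = 0.0156), and FMD replicate 1, at 16.8, was then below the lowest FED library, at 21.2. In scaled values both regimens were therefore separate from FED, as were 23.0% of all genes in the lower direction in IF and 18.2% in FMD; on the deposited values 6.77% of all genes were lower without overlap in IF and 2.62% in FMD.

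The Orm2 calls were lost when single libraries were left out, with 2 mice then in a group. Without FED replicate 1, the highest of the FED libraries, the log2 fold change was -1.42 for IF (adjusted p = 0.155) and -1.36 for FMD (adjusted p = 0.0815). The IF call was also lost without FED replicate 3 and without each IF replicate, at adjusted p of 0.059 to 0.136 and log2 fold changes of -2.28 to -1.75, and the FMD call without FMD replicate 2 or 4, at adjusted p of 0.0681 and 0.0589. Orm2 was lower in IF and in FMD in each of these fits. Between the regimens Orm2 differed by 0.05 (log2 FMD over IF, 95% interval -1.29 to 1.39), an interval that spans FMD to IF ratios of 0.41 to 2.63.

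The paralog Orm1, the more abundant α1-acid glycoprotein of this liver, had less spread. Its level was 2107, 1371 and 1554 TPM in FED replicates 1, 2 and 3, 872, 991 and 720 TPM in the IF replicates in the same order, and 586, 389 and 365 TPM in FMD replicates 1, 2 and 4. The 3 groups did not overlap, and the order was FED, IF, FMD. Orm1 fell 1.93-fold in IF (log2 -0.95, adjusted p = 0.0113), 3.77-fold in FMD (log2 -1.92, adjusted p = 0.000137) and 1.95-fold in FMD against IF (log2 -0.97, adjusted p = 0.0311), and all 3 calls were also made after scaling. The IF call was lost without FED replicate 1 (adjusted p = 0.0513). The call between the regimens was lost with a fit of the FMD and IF libraries alone (adjusted p = 0.0831), without FED replicate 3, without FMD replicate 2 and without any 1 IF replicate (adjusted p of 0.0514 to 0.12). Orm2 reached 0.591% to 4.09% of the Orm1 level in a library, and this share overlapped between all groups. The copies of this gene family are nearly identical and lie next to each other, the counting used by the authors is not given in the sources used here, and reads of Orm1 and Orm2 could have been divided between them. The paralogs Orm3, Saa1, Saa2 and Saa4 were not analysed here.

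**Figure D1:**
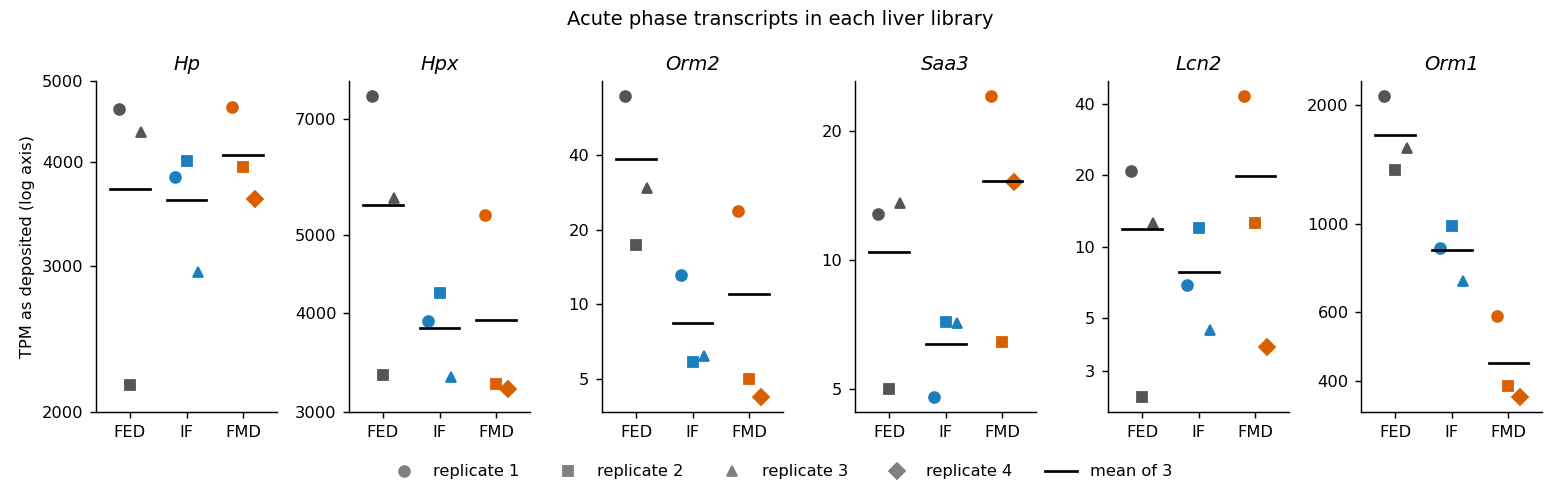
Level of the 5 members and of Orm1 in TPM as deposited (log axis) in each liver library, by diet group, with the replicate number as the marker and the mean of 3 as a bar. All IF values of Orm2 are below the FED values, the 3 groups of Orm1 do not overlap, and FED replicate 2 is the lowest FED library in every panel.

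Haemopexin had lower group means in both regimens than in FED, and with all 9 libraries this difference passed the test in FMD alone, after scaling or quantile normalization and not as deposited. Hpx was at 7485, 3340 and 5568 TPM in FED replicates 1, 2 and 3, at 3910, 4232 and 3326 TPM in the IF replicates and at 5310, 3252 and 3205 TPM in FMD replicates 1, 2 and 4. FED replicate 2 lay within the range of the IF libraries, and the groups overlapped. The log2 fold change was -0.45 ± 0.28 in IF (95% interval -1.07 to 0.18, adjusted p = 0.26) and -0.44 ± 0.28 in FMD (interval -1.07 to 0.18, adjusted p = 0.178).

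After scaling, Hpx fell 2-fold in FMD (log2 -1.0 ± 0.26, adjusted p = 0.022), with no overlap between FMD at 2848 to 3719 and FED at 4074 to 9183. The scaled log2 fold change in IF was -0.73 (adjusted p = 0.0878). Without FED replicate 2, Hpx was called lower in FMD on the deposited values too (log2 -0.76, adjusted p = 0.026) and in both regimens after scaling (log2 -1.04 for IF, adjusted p = 0.0153, and log2 -1.31 for FMD, adjusted p = 0.00371). Without FMD replicate 1 it was likewise called lower in FMD on the deposited values (log2 -0.68). The scaled FMD call was lost without FED replicate 1 (adjusted p = 0.0682), FED replicate 3 (adjusted p = 0.073) or FMD replicate 2 (adjusted p = 0.0594).

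Haptoglobin did not pass the test in any comparison of the 9 libraries. Hp was at 4626, 2154 and 4337 TPM in FED replicates 1, 2 and 3, at 3834, 4010 and 2945 TPM in the IF replicates and at 4659, 3942 and 3609 TPM in FMD replicates 1, 2 and 4. FED replicate 2 was the lowest of all 9 libraries and the other FED libraries were among the highest 3. The log2 fold change was 0.02 in IF (95% interval -0.56 to 0.60, adjusted p = 0.959) and 0.21 in FMD (interval -0.37 to 0.79, adjusted p = 0.489). After scaling both changed sign, to -0.26 (adjusted p = 0.538) and -0.35 (adjusted p = 0.361). With scaled values and without FED replicate 2 Hp was called lower against FED in both regimens, with adjusted p of 0.0412 for IF (log2 -0.60) and 0.017 for FMD (log2 -0.69), so that its direction and its call turned on 1 FED mouse and on the scaling.

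Ratios of members within a library do not depend on the scaling and were computed after the values had been seen. The ratio of Hp to Hpx was 0.618, 0.645 and 0.779 in the FED libraries, 0.981, 0.948 and 0.886 in the IF libraries and 0.877, 1.21 and 1.13 in the FMD libraries. It was higher without overlap in both regimens than in FED. Hp was not particular in this, since the ratio of a gene to Hpx was higher without overlap for 41.9% of the other genes tested in IF and for 56.9% in FMD. Orm2 was the opposite case, with a ratio to Hpx lower without overlap in both regimens, as for 0.75% of the other genes in IF and 0.579% in FMD. Of the 10 ratios between members, 4 did not overlap between IF and FED and 5 between FMD and FED, and each of these held Orm2 or was Hp over Hpx. The ratios of Hp, Hpx, Saa3 and Lcn2 to one another otherwise overlapped. An exact permutation test of 3 against 3 libraries cannot give a p under 0.1, so that no ratio could pass a threshold of 0.05.

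**Figure D2:**
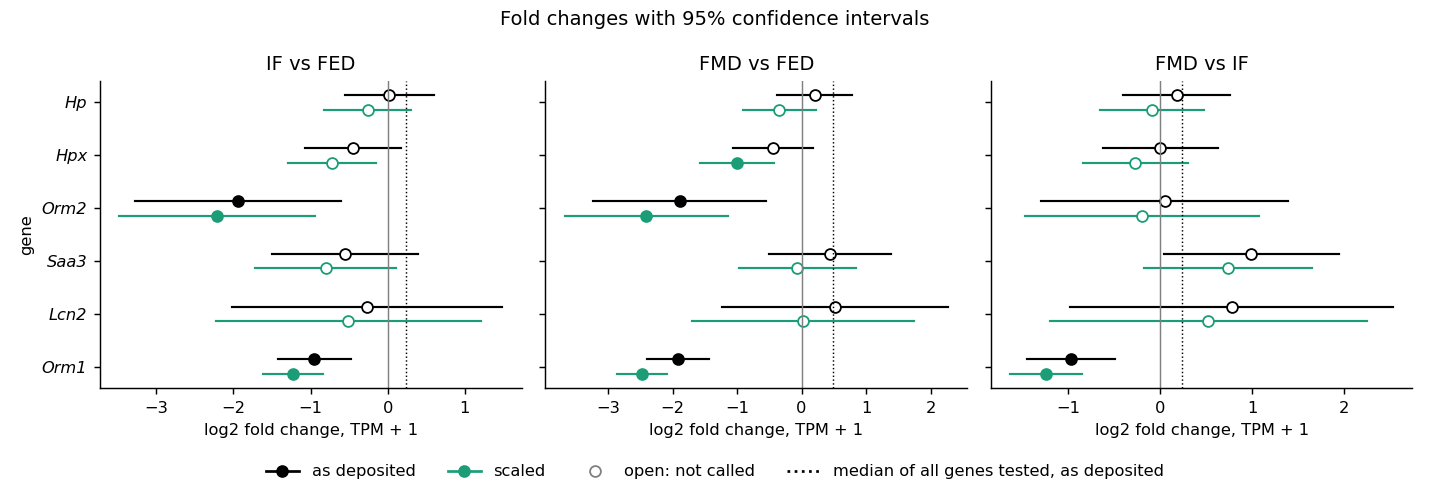
Log2 fold changes of the 5 members and Orm1 on the log2(TPM + 1) scale with 95% confidence intervals, for IF against FED, FMD against FED and FMD against IF, as deposited (black) and after scaling (green). Filled points passed the test; Orm2 did so in both comparisons with FED, Hpx in FMD after scaling, and the intervals of Lcn2 are the widest.

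Saa3 was low in all mice, at 12.8, 4.99 and 13.6 TPM in FED replicates 1, 2 and 3, 4.78, 7.17 and 7.12 TPM in the IF replicates and 24.1, 6.43 and 15.2 TPM in FMD replicates 1, 2 and 4. The IF values were close together and lay within or just below the FED range, while the 2 highest values of all 9 libraries were FMD libraries. The log2 fold change was -0.55 in IF (95% interval -1.5 to 0.40, adjusted p = 0.354) and 0.44 in FMD (interval -0.51 to 1.39, adjusted p = 0.366), and the latter was -0.065 after scaling. Between the regimens the Saa3 ratio of FMD to IF was 1.99 (log2 0.99, interval 0.05 to 1.94), with an unadjusted p of 0.0416 and an adjusted p of 0.129. Without FMD replicate 2, the FMD library with the least Saa3, it was called higher in FMD than in IF (log2 1.47, adjusted p = 0.0429), a call that was not made after scaling (adjusted p = 0.0894).

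Lcn2 varied most within groups. Its level was 20.7, 2.33 and 12.6 TPM in FED replicates 1, 2 and 3, 6.91, 12.1 and 4.48 TPM in the IF replicates and 43.0, 12.6 and 3.78 TPM in FMD replicates 1, 2 and 4. The highest library was 8.90-fold above the lowest in FED and 11.4-fold in FMD, and all groups overlapped. The log2 fold change was -0.27 in IF (95% interval -2.02 to 1.49, adjusted p = 0.819) and 0.51 in FMD (interval -1.24 to 2.27, adjusted p = 0.567). As ratios to FED these intervals run from 0.246 to 2.81 for IF and from 0.423 to 4.82 for FMD.

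None of the 5 members was called between FMD and IF by limma, on the deposited or the scaled values, and 1 (Saa3) had an unadjusted p under 0.05 on the deposited values and none after scaling. Among all genes tested, 4.67% were called higher and 0.472% lower in FMD than in IF. The median log2 fold change of the 5 members was -0.45 in IF against FED, 0.21 in FMD against FED and 0.18 in FMD against IF, beside 0.24, 0.48 and 0.24 for all genes. After scaling the medians of the members were -0.73, -0.35 and -0.090, beside -0.001, 0.006 and -0.002 for all genes.

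The spread between mice of a group was large for most members. In FED, the SD of log2(TPM + 1) was 0.61 for Hp, 0.59 for Hpx, 0.98 for Orm2, 0.72 for Saa3 and 1.41 for Lcn2. This placed them at or above the 99th percentile of the 500 tested genes nearest to each in mean TPM, whose median SD was 0.10 to 0.11. The SD of Hp was at the 93.6th percentile in IF and at the 27.8th in FMD, whereas Orm2, Saa3 and Lcn2 were at or above the 96.4th in each group.

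In FED, replicate 2 had the lowest value of all 5 members and of 10 of the 12 other acute phase genes tested, before and after scaling. The same library was the lowest of its group for 40.6% of all genes tested as deposited and 35.7% after scaling. FED replicate 1 was the highest for 4 of the 5 members (all but Saa3) and for 10 of the 12 others, against 34.9% of all genes. In FMD, replicate 1 was the highest for all 5 members, but it was so for 71.8% of all genes, and after scaling for 4 of 5 members (all but Hp) and for 35.8% of all genes. In IF the members did not share an order, with replicate 2 the highest for 4 members and for 37.3% of all genes, and replicate 1 for Orm2. After scaling, IF replicate 2 was the highest for 3 members (Hp, Hpx and Lcn2) and for 31.3% of all genes, replicate 3 for Saa3 and replicate 1 for Orm2.

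**Figure D3:**
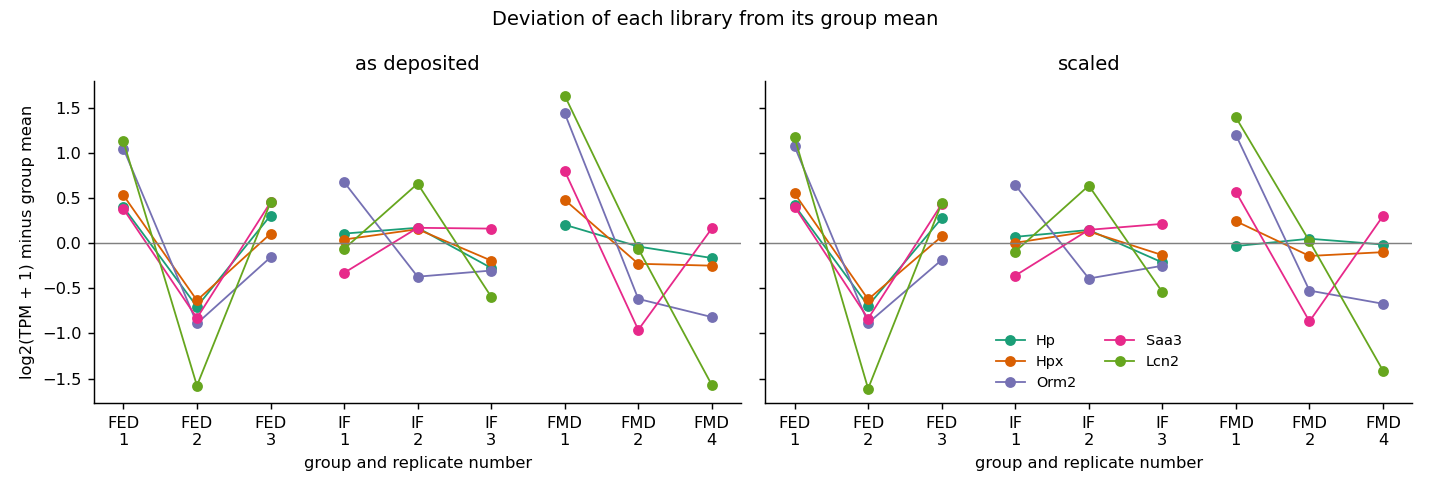
Deviation of log2(TPM + 1) of each member from its group mean in each library, as deposited (left) and after scaling (right), with lines joining the 3 libraries of a group. All 5 members are below the mean in FED replicate 2, and Lcn2 and Orm2 are more than 1 log2 unit above it in FMD replicate 1.

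Likeness of profile was measured as the root mean square difference of centred log2(TPM + 1) over the 9 libraries, among genes whose SD was at least 1/2 of the member's. The genes most like Orm2 were Enho, Sdf2l1 and Depp1, at 0.57, 0.62 and 0.68, beside a median of 1.68 over the 273 genes compared, and the same 3 came first after scaling. Orm1 lay at 0.76 from Orm2. Nearest to Hp were Tmem176b (0.15), Ppil1 and Sars2, and nearest to Hpx were Snai2, Ifitm2 and the acute phase gene Fgl1, at 0.21 to 0.24. Fgl1 was also the gene most like Saa3 (0.41), ahead of Tubb5 and Cpne8. Cpne8 was nearest to Lcn2, at 0.72, with Pgd and Anxa5 next. After scaling the acute phase gene Lrg1 took the place of Sars2 for Hp, and Cxcl10 that of Pgd for Lcn2. For Hpx, Snai2 dropped out and Polr3k came in behind Ifitm2 and Fgl1. The measure grows with the spread of the genes compared, so it does not rank likeness between members of unlike spread. The SD over the 9 libraries was 0.36 for Hp, 0.43 for Hpx, 1.16 for Lcn2 and 1.28 for Orm2. The median over the genes compared was 0.38 for Hp and 1.135 for Lcn2. Between members, the smallest difference was that of Hp and Hpx (0.31), and the largest that of Orm2 and Lcn2 (1.18).

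Other genes of the acute phase response were read from a list of 30 positive acute phase genes beside the members, of which 12 were in the table and all 12 were tested. With the members, 4 of 17 were called in IF (2 higher and 2 lower) and 7 of 17 in FMD (4 higher and 3 lower). Of all genes tested, 10.3% were called higher and 1.59% lower in IF, and 35.5% and 1.59% in FMD. After scaling there were 1 higher and 3 lower of the 17 in IF, and 2 higher and 6 lower in FMD. The shares of all genes were then 3.69% higher and 3.45% lower in IF, and 5.49% and 5.64% in FMD. The median log2 fold change of the 17 genes was 0.02 in IF and 0.21 in FMD on the deposited values, and -0.26 and -0.35 after scaling. On the deposited values 9 of the 17 were above 0 in each regimen, beside 81.1% of all genes in IF and 91.4% in FMD. After scaling 5 of the 17 were above 0 in each, beside 49.8% and 50.9% of all genes. Calls were made in both directions each time. The 12 negative acute phase genes of the list, among them the albumin and transferrin genes, were not analysed here.

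Serpina3m, a relative of α1-antichymotrypsin, was the other positive acute phase gene with the smallest adjusted p in both regimens on the deposited values. It was at 155, 95.7 and 142 TPM in the FED replicates, 321, 446 and 340 TPM in the IF replicates and 492, 437 and 383 TPM in the FMD replicates, with all treated mice above all FED mice. Serpina3m rose 2.83-fold in IF (log2 1.5, adjusted p = 0.000709) and 3.37-fold in FMD (log2 1.75, adjusted p = 0.000132), also after scaling. The Serpina3 genes are a family of close copies, and how reads were divided among them is not known.

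Lbp, which encodes the carrier that presents bacterial lipopolysaccharide to its receptor, rose on the deposited values from 43.1 to 70.7 TPM in FED to 91.0 to 105 TPM in IF (log2 0.80, adjusted p = 0.00737) and 111 to 118 TPM in FMD (log2 0.98, adjusted p = 0.000981). After scaling Lbp was no longer called in either regimen (log2 0.52 and 0.44). Complement C4b fell in FMD, from 279 to 411 TPM in FED to 191 to 243 TPM (log2 -0.71, adjusted p = 0.00379), and was also lower in FMD than in IF (log2 -0.61, adjusted p = 0.0456), a call that a fit of these 2 groups alone did not give (adjusted p = 0.0935). The 2 remaining calls, Serpina3n (log2 0.87) and the interleukin-1 receptor antagonist Il1rn (log2 1.83), were higher in FMD and are named here after their values were seen. After scaling Serpina3n was not called (log2 0.32, adjusted p = 0.254) and Il1rn was (log2 1.51, adjusted p = 0.0499). Il1rn was at 8.70, 7.43 and 0.64 TPM in FMD replicates 1, 2 and 4 and at or under 1.21 TPM in all other libraries, so that 1 FMD mouse was not separate from IF.

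**Figure D4:**
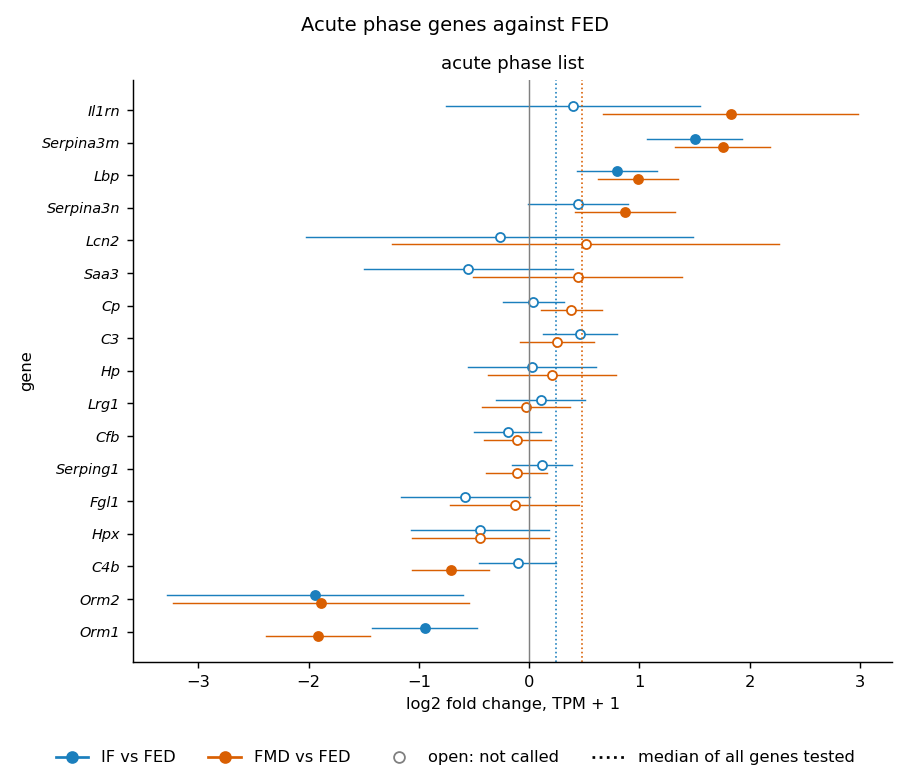
Log2 fold changes of the 17 acute phase genes tested, members included, for IF (blue) and FMD (orange) against FED, as deposited, with 95% confidence intervals and filled points for genes that passed the test. Orm1 and Orm2 are at the lower end in both regimens, Serpina3m and Lbp were called higher in both, and the dotted lines mark the median of all genes tested (0.24 in IF and 0.48 in FMD).

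The cytokine pathway upstream of these genes was read from a list of 58 genes, of which 22 were in the table and 20 were tested. Of these, 1 was called higher and 1 lower in IF, and 9 higher and 1 lower in FMD, beside 10.3% higher and 1.59% lower of all genes in IF and 35.5% and 1.59% in FMD. After scaling the FMD calls were 2 higher and 2 lower, beside 5.49% higher and 5.64% lower of all genes. Lifr, the receptor subunit for leukaemia inhibitory factor, fell from 99.1 to 165 TPM in FED to 24.8 to 28.8 TPM in IF (log2 -2.22) and 16.9 to 24.4 TPM in FMD (log2 -2.61), before and after scaling. Socs3, an inhibitor induced by STAT3, rose from 1.47 to 2.67 TPM in FED to 3.96 to 6.94 TPM in IF (log2 1.06, adjusted p = 0.006) and 5.30 to 7.71 TPM in FMD (log2 1.31, adjusted p = 0.0008), before and after scaling. Stat3 itself was at 24.9 to 32.7 TPM in the FED libraries, 29.3 to 34.1 TPM in the IF libraries and 30.3 to 40.02 TPM in the FMD libraries and was not called.

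Cebpb, the gene of the C/EBPβ factor, rose 2.98-fold in FMD, from 60.9 to 77.4 TPM in FED to 179 to 213 TPM (log2 1.57, adjusted p = 2.13e-05). It was at 87.3 to 96.1 TPM in IF, where the difference of 0.44 (log2) was under the limit on fold change, and it was higher in FMD than in IF (log2 1.13, adjusted p = 0.00195). These Cebpb calls in FMD were also made after scaling. Il1r1, the interleukin-1 receptor, rose in FMD from 6.60 to 7.91 TPM to 12.9 to 17.2 TPM (log2 0.92), and Ikbkg, a regulatory subunit of the IκB kinase, rose from 12.5 to 14.8 TPM to 23.4 to 25.6 TPM (log2 0.79). Neither was called after scaling. Il6st, which encodes gp130, was not called against FED. Its difference of 0.56 (log2) in FMD (limma, adjusted p = 0.0116) was under the limit on fold change, and was 0.03 after scaling. Il6st was called higher in FMD than in IF (log2 0.66, adjusted p = 0.038) but not after scaling (log2 0.40, adjusted p = 0.118). The NF-κB inhibitor gene Nfkbia was not called in any comparison.

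Genes of haem and iron handling, some of them for uptake or breakdown of haem, were read from a list of 35, of which 14 were in the table and tested. Cd163, the listed receptor gene for haptoglobin bound to haemoglobin, was not among those tested. Of the 14, 3 were called higher in IF and 6 in FMD, with no lower call on the deposited values in either regimen. The background was the same 10.3% and 35.5% called higher. After scaling there were 2 higher and 1 lower in IF and 2 higher and 3 lower in FMD. Of all genes, 3.69% were then called higher and 3.45% lower in IF, and 5.49% and 5.64% in FMD. Alas1, the rate-limiting enzyme of haem synthesis, rose from 28.2 to 122 TPM in FED to 333 to 398 TPM in IF (log2 2.64) and 223 to 517 TPM in FMD (log2 2.38), and Cpox, a later enzyme of that pathway, rose from 51.2 to 52.9 TPM to 110 to 146 TPM in IF (log2 1.22) and 94.9 to 143 TPM in FMD (log2 1.09). Blvrb, a biliverdin reductase, rose in both regimens (log2 0.65 and 1.16). After scaling Cpox was not called in FMD (log2 0.54) and Blvrb was not called in IF (log2 0.37).

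Hmox1, the inducible enzyme that degrades haem, was at 12.8 to 14.3 TPM in FED and rose to 21.8 to 35.9 TPM in FMD (log2 1.04, adjusted p = 0.000729). In IF it was at 9.08 to 10.4 TPM, below all FED libraries, with a log2 fold change of -0.45 (adjusted p = 0.0686), which became -0.71 (adjusted p = 0.00569) and a call after scaling. After scaling the FMD difference, at 0.51, was under the limit on fold change. Lrp1, the receptor for the haem-haemopexin complex, was at 53.5 to 56.6 TPM in the FED libraries, 52.7 to 56.8 TPM in the IF libraries and 36.4 to 50.8 TPM in the FMD libraries (log2 -0.31, adjusted p = 0.0528), and was called lower in FMD after scaling (log2 -0.85, adjusted p = 0.00823). Tfrc, the transferrin receptor, rose in FMD from 4.31 to 5.30 TPM to 6.74 to 13.1 TPM (log2 0.95). After scaling it was not called (log2 0.47).

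Of 14 glucocorticoid receptor targets 8 were tested, and 4 were called higher in IF and 7 in FMD, with none lower, beside 10.3% and 35.5% of all genes called higher. After scaling 3 were called higher in IF and 4 in FMD, beside 3.69% and 5.49% of all genes. The median log2 fold change of the list was 0.98 in IF and 1.81 in FMD as deposited, and 0.72 and 1.27 after scaling. For all genes tested it was 0.24 and 0.48 as deposited, and -0.001 and 0.006 after scaling. Fkbp5, a chaperone of the receptor, rose from 2.03 to 5.31 TPM in FED to 18.4 to 30.9 TPM in IF (log2 2.34) and 33.9 to 72.9 TPM in FMD (log2 3.54). Per1, a clock gene with glucocorticoid response elements, rose from 1 to 2.54 TPM to 10.3 to 11.04 TPM in IF (log2 2.08) and 15.0 to 16.4 TPM in FMD (log2 2.62). Angptl4 (log2 1.11 and 1.87) and Klf9 (log2 0.80 and 1.17) also rose in both, although Klf9 was not called in IF after scaling.

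**Figure D5:**
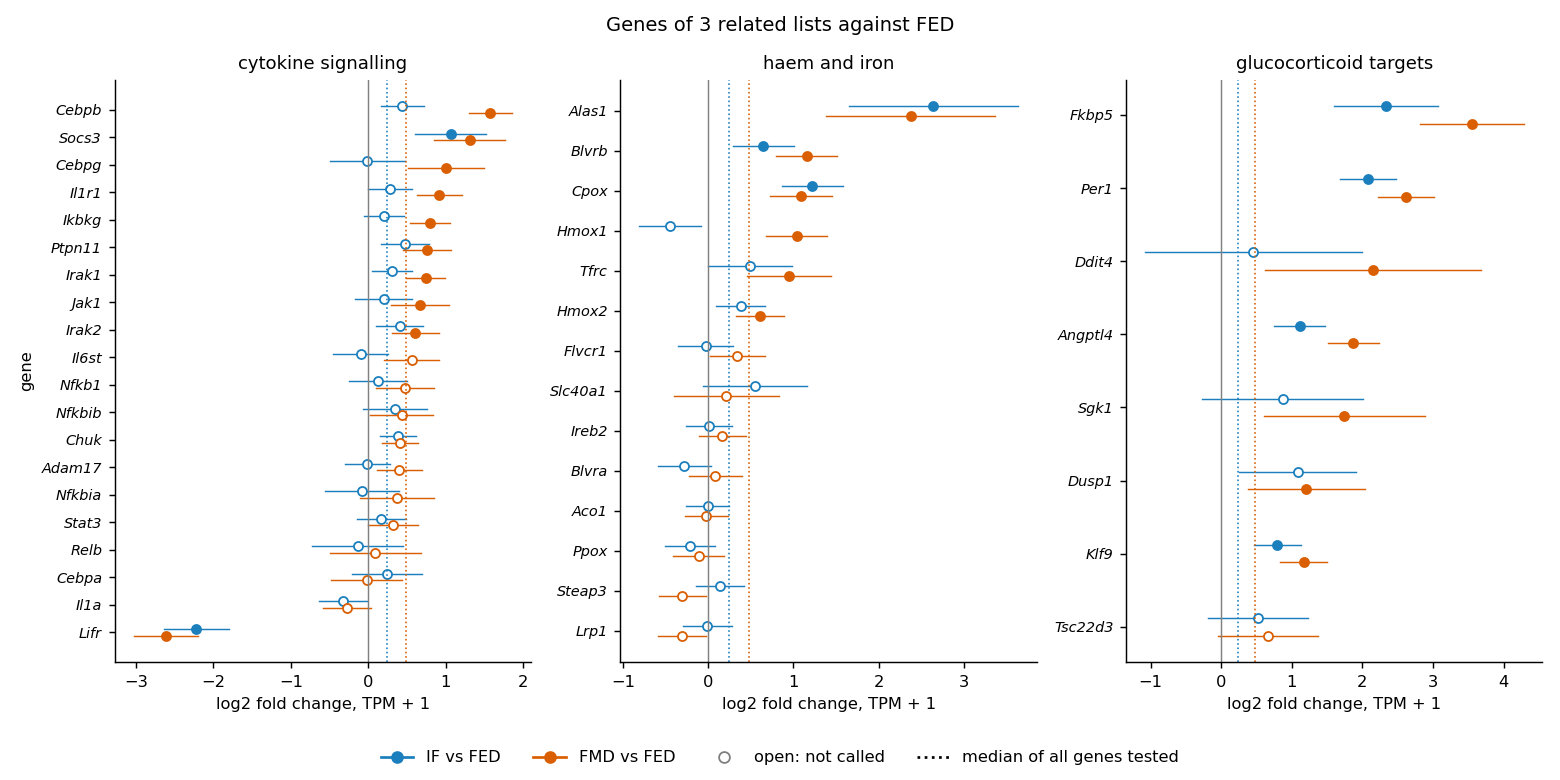
Log2 fold changes of the genes tested of the cytokine signalling, haem and iron, and glucocorticoid target lists, for IF (blue) and FMD (orange) against FED, as deposited, with 95% confidence intervals, filled points for genes that passed the test and dotted lines at the median of all genes tested. Lifr is the only gene of the 3 lists called lower against FED, Cebpb was called in FMD only, and Fkbp5 and Per1 have the largest changes of the glucocorticoid list.

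In whole liver, fewer cells of a type and less RNA per cell cannot be told apart, and Saa3 and Lcn2 are also made outside hepatocytes. Of the 14 macrophage markers listed 1 was in the table. Cd68 was at 6.35, 10.4 and 8.31 TPM in FED, 5.21, 3.14 and 5.99 TPM in IF and 64.0, 12.2 and 5.75 TPM in FMD replicates 1, 2 and 4, and its highest library was also the highest for Saa3 and Lcn2. That library, FMD replicate 1, was the highest of its group for all 5 members and for 71.8% of all genes tested on the deposited values. The part of Cd68 in the values of Saa3 and Lcn2 was not tested. Of the 13 neutrophil markers listed, Camp was at 0 in all 9 libraries and Mmp9 at 0.05 to 0.28 TPM. Of 8 stellate cell or fibroblast markers, Col1a1 was at 0.27 to 1.63 TPM. Dcn rose from 64.1 to 90.1 TPM in FED to 120 to 156 TPM in IF and 106 to 213 TPM in FMD. After scaling Dcn was not called (log2 0.58 in IF and 0.35 in FMD). The cholangiocyte marker Krt19 was at 0.76 to 4.07 TPM. The hepatocyte, endothelial, lymphocyte, erythroid and adipocyte markers listed were not analysed here, so the tissue label was not checked against them.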

How the data were processed

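RNA-seq values of 9 mouse livers were analysed, grouped by the sample labels into FED, IF and FMD (3 mice each). The authors enriched polyadenylated RNA, made strand-specific libraries and sequenced them on the DNBSEQ platform, and deposited TPM values, normalized by them for transcript length and library total. The submitters' processing notes name the genome build mm39 and the tool DESeq2. The aligner, annotation and counting are not given in the sources used here. Since the table holds part of each library and no counts, depth and counting error are unknown. All 9 sample columns were used.

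TPM values were analysed as log2(TPM + 1) with limma 3.58.1 in R 4.3.3 (1 fit of 9 libraries, eBayes with a trend) for 4665 genes with a mean of at least 1 TPM, with Benjamini-Hochberg adjustment over all of them. Genes below that mean were left out of the tests. The fit was tested on simulated data. Members and gene lists were chosen with earlier results of these data known. Genes named are the members and their paralogs, up to 4 called genes of smallest adjusted p per list and comparison, regulators and receptors listed with them, markers in the table, and the 3 genes most like each member. Promoter windows came from RefSeq (GRCm38.p6). Alternatives covered quantile normalization, scaling, the filter, the pseudocount, the thresholds, the trend, a replicate block, fits of 2 groups at a time and each library left out. Ratios between members were added after the values were seen. Exact permutation tests used scipy 1.17.1, and other steps matplotlib 3.10.9, pandas 2.3.3, numpy 2.4.6 and python 3.11.15.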

Additional observations from a re-analysis of the deposited data

Results flagged for a closer look

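No member differed between the regimens by the test. In the lists read beside them, 9 genes were called in FMD against IF, a test from the fit of all 9 libraries in which FED adds to the estimate of the spread. These were 2 of 17 acute phase, 5 of 20 cytokine signalling, 1 of 14 haem and iron and 1 of 8 glucocorticoid target genes tested. Of all genes tested, 4.67% were called higher and 0.472% lower, and after scaling 1.11% in each direction. On the log2 scale, Orm1 was lower by -0.97 and C4b by -0.61, and Il6st was higher by 0.66, Il1r1 by 0.64, Ikbkg by 0.59, Cebpb by 1.13, Cebpg by 1.02, Hmox1 by 1.49 and Angptl4 by 0.76, beside a median of 0.24 over all genes. After scaling, Orm1, C4b, Cebpb and Hmox1 were still called and the other 5 were not. With a fit of the FMD and IF libraries alone, Cebpb and Hmox1 were called and the other 7 were not, Orm1 at an adjusted p of 0.0831 and C4b at 0.0935 (limma). The same 7 were not called on the deposited values without any 1 of the IF replicates.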

How the results depend on the processing

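The mean and the spread rest on 3 mice per group, and depth is unknown. Orm2 was lower than FED in both regimens under every alternative run, Hpx too. Scaling (and quantile normalization) changed the counts of genes called to 333 (326) in IF and 519 (514) in FMD against FED and 104 (98) in FMD against IF. Among the log2 fold changes, Hp became -0.26 (-0.24) in IF and -0.35 (-0.066) in FMD, Hpx was called lower in FMD at -1.0 (-0.61), and Saa3 in FMD became -0.065 (-0.10). In FMD against IF, Hpx became -0.27 (-0.18) and Orm2 -0.19 (-0.23), and Hp became -0.090 with scaling alone.

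Without a limit on the fold change 1112 genes were called in IF and 3135 in FMD. At an adjusted p under 0.01, 364 genes were called in IF and 19 in FMD against IF, with 2 and 0 acute phase genes, and Orm2 was not called at -1.94 in IF and -1.89 in FMD. Without a filter on low values Orm2 at -1.94 in IF had an adjusted p of 0.0646, and 1 acute phase gene was called in FMD against IF. With 1 fit per pair of groups 24 genes and 0 acute phase genes were called in FMD against IF.

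With each library left out in turn, as deposited and scaled, 214 to 608 genes were called in IF, 405 to 2173 in FMD and 12 to 820 in FMD against IF, with 2 to 6, 3 to 10 and 0 to 5 acute phase genes. In IF the log2 fold change ranged from -0.60 to 0.22 for Hp, -1.04 to -0.18 for Hpx, -2.66 to -1.42 for Orm2 and -1.32 to 0.30 for Lcn2. In FMD it ranged from -0.69 to 0.40 for Hp, -1.31 to -0.18 for Hpx, -3.0 to -1.36 for Orm2, -0.48 to 0.92 for Saa3 and -0.79 to 1.30 for Lcn2. In FMD against IF it ranged from -0.20 to 0.27 for Hp, -0.39 to 0.13 for Hpx, -0.79 to 0.46 for Orm2, 0.46 to 1.47 for Saa3 and -0.17 to 1.57 for Lcn2. The highest counts in FMD comparisons, 2173 and 820, were without FMD replicate 4, and the count of 12 was without IF replicate 2 after scaling. The causes were not tested.

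Whether the replicate numbers pair the mice is not known. Deviations of libraries with the same number correlated at 0.00348 to 0.177, all positive, and not every pair was over 0.1. Those of libraries with different numbers correlated at -0.202 to 0.211. With the replicate block, Orm2 was called lower in IF at -1.94 (limma, adjusted p = 0.000552), and with scaling as well at -2.21 (adjusted p = 0.00115). No other library has the number 4, so with the block FMD replicate 4 had a term of its own and added nothing to the FMD estimates. The FMD results with the block therefore rest on FMD replicates 1 and 2. Leaving out FMD replicate 4, with no block, gave 820 genes called in FMD against IF. The block gave 772 genes called in FMD against IF, and with scaling and the block 626 were called in FMD against FED. In that fit Hp was -0.26 in IF, -0.33 in FMD and -0.067 in FMD against IF, Hpx was -0.24 in FMD against IF and -0.96 in FMD against FED, where the call was lost (adjusted p = 0.0639), and Saa3 -0.054 in FMD.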

Other observations

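The FMD libraries differed from one another in several genes of the lists, which are named here after their values were seen. Sgk1, a kinase induced by glucocorticoids, was at 89.4, 23.9 and 15.2 TPM in FMD replicates 1, 2 and 4, and Ddit4, an inhibitor of mTOR signalling, was at 75.5, 21.4 and 4.72 TPM, the last value being within the FED range of 2.68 to 4.74 TPM. Osmr, the oncostatin M receptor, was too low to be tested and was at 2.11, 1.53 and 0.51 TPM in these libraries and at 0.38 to 0.53 TPM in FED. On the deposited values all 3 genes were highest in FMD replicate 1 and lowest in FMD replicate 4. So were the members Hp, Hpx, Orm2 and Lcn2. Of all genes tested, 71.8% were highest in the former and 53.6% were lowest in the latter on the deposited values. After scaling these shares were 35.8% and 33.9%. Orm2 and Lcn2 then kept this order, while Hp was lowest in FMD replicate 1 and Hpx in FMD replicate 2.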
